A study of Mus musculus with 89 samples.

Results

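The set described here holds 44 genes of the Wnt pathway, matched by symbol among the 54146 genes of the expression tables: 19 Wnt ligands, 2 genes of ligand processing and release (Porcn and Wls), 10 Frizzled receptors, 2 co-receptors, 4 genes of the destruction complex and 7 feedback genes. RNA-seq of 20 libraries of mouse embryonic stem cells (ESCs) was used to follow them after loss of the orphan nuclear receptors Esrrb and Nr5a2. All of them derive from EKOiE ESCs, whose own Esrrb gene is inactive and whose Esrrb comes from a transgene that is on while doxycycline (Dox) is present. EKOiE NrKO ESCs were made from that line and carry deletions on both Nr5a2 alleles, within sequence for the DNA-binding domain. The 4 states were EKOiE ESCs given Dox (1 µg/ml; +E+N), EKOiE ESCs kept without Dox for 2 days (-E), EKOiE NrKO ESCs with Dox (-N) and EKOiE NrKO ESCs kept without Dox for 2 days (-E-N). Each state was sequenced in FCS/LIF, which is serum with the cytokine LIF, in 2 replicates, and in 2i/LIF, which holds inhibitors of the kinases Gsk3 and MEK with LIF, in 3 replicates. The study describes the replicates as independent experiments, and the p-values measure the spread between them. The labels do not give the EKOiE NrKO clone, and the methods name clone 4 where they describe RNA-seq of the disrupted alleles. What belongs to that line and what to Nr5a2 loss cannot be told apart, nor can the medium and the culture batch. The same holds for Esrrb loss and the absence of Dox itself, which all -E and -E-N libraries share.

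Wnt proteins are secreted lipid-modified ligands: Porcn attaches the lipid, Wls carries the ligand to the cell surface, and a Frizzled receptor with the co-receptor Lrp5 or Lrp6 binds it. Binding stops a complex of Axin, Apc and Gsk3 from marking β-catenin for destruction, and β-catenin then acts on target genes together with Tcf/Lef factors. Several targets, among them Axin2, Nkd1, Notum, Dkk1, Znrf3 and Rnf43, dampen the pathway. In mouse ESCs Wnt signals help to maintain the naive state, and a Gsk3 inhibitor, as in 2i/LIF, stabilises β-catenin with no need of a ligand.

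Promoter sequence is shown first, for some of the members.
RefSeq promoters of GRCm38.p6 (250 bases before to 50 after each start) were found for 29 of the 44 members, which have 33 promoters. No promoter was found for Wnt5a, Wnt7b, Wnt8a, Wnt10a, Porcn, Fzd2, Fzd3, Fzd6, Fzd8, Lrp5, Lrp6, Axin1, Apc, Notum and Znrf3. The matches below do not cover these 15 members, several of which change in the results that follow.
On both strands, the letters TCAAGGTCA, an Esrrb consensus, TCAAGGCCA, its Nr5a2 variant, and their shorter cores AAGGTCA and AAGGCCA, which lie within the longer words, had 0 matches in the 33 promoters.
The shares of all 32851 promoters with a match were 0.423% for TCAAGGTCA, 0.591% for TCAAGGCCA, 4.72% for AAGGTCA and 6.2% for AAGGCCA.
The Tcf/Lef words CTTTGAT and CTTTGTT, which cannot overlap on one strand, were found in 3 (Sp5, Wnt11 and Wnt5b, 9.09%) and 4 (Sp5, Dkk1, Fzd7 and Wnt3, 12.1%) of the 33 member promoters, against 3.73% and 5.85% of all promoters. Wnt11 and Wnt5b also have promoters without either word. The Wnt5b match (chr6:119449451-119449457) lies inside the annotated gene, which spans chr6:119432531-119544347 on the - strand.
Such a match is a description of the letters, not a site of binding.
The 250 bases upstream of the start are given 5′ to 3′ for Sp5 and Wnt11, which hold a Tcf/Lef word (in capitals, as its reverse complement where it lies on the other strand, 104 and 222 bases before the Sp5 start and 51 before that of Wnt11), and for Axin2 and Fzd5, a feedback gene and a receptor that changed in both media and hold none of the 6 words:
Sp5, chr2:70474673-70474922, + strand: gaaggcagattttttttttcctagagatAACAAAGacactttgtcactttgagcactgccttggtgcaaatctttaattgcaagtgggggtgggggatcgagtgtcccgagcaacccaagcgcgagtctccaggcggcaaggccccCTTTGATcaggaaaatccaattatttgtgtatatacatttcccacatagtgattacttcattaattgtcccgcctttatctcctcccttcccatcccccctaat
Wnt11, chr7:98834862-98835111, + strand: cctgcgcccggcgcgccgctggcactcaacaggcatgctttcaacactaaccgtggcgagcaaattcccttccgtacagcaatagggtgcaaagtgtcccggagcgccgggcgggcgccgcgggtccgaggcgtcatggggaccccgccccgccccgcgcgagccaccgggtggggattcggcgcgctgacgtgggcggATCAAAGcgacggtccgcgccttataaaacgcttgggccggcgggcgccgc
Axin2, chr11:108920099-108920348, + strand: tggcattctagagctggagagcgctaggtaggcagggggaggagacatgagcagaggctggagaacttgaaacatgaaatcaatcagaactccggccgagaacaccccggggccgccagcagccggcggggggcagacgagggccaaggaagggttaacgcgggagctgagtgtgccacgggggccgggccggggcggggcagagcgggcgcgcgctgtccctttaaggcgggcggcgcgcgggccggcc
Fzd5, chr1:64737751-64738000, - strand: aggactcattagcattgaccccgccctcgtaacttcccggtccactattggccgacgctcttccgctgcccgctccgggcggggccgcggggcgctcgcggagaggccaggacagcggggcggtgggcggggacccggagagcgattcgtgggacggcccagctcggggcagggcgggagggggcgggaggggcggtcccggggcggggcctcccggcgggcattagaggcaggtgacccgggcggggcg
For 3 other members with a Tcf/Lef word, the match is shown in capitals with 10 bases on each side:
Dkk1, chr19:30549578-30549604, - strand: cccatcccggCTTTGTTgtcttccctg
Wnt5b, chr6:119449441-119449467, - strand: gtaagtctctCTTTGATctgctccctg
Fzd7, chr1:59482007-59482033, + strand: ccacagagaaAACAAAGcgcgctattg

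The libraries held 36514172 to 45443379 counts in FCS/LIF and 26653035 to 32526534 in 2i/LIF. Esrrb in FCS/LIF was at 271 and 353 CPM in +E+N and 74.2 and 65.1 CPM in -E, and in 2i/LIF it was at 515, 609 and 605 CPM in +E+N and 441, 434 and 380.4 CPM in -E. All -E libraries were below all +E+N libraries, with a log2 change of -0.46 ± 0.16 (adjusted p = 0.12) in 2i/LIF and -2.18 ± 0.13 (adjusted p = 2.8e-05) in FCS/LIF, which differed by -1.70 ± 0.24 (adjusted p = 0.0011), from edgeR with SE. In FCS/LIF it had 219 and 259 CPM in -N and 31.3 and 28.9 CPM in -E-N. In 2i/LIF it had 415, 531 and 527 CPM in -N and 171, 161 and 104 CPM in -E-N. Nr5a2 had 39.9 and 36.1 CPM in +E+N, 19.7 and 19.2 CPM in -E, 27.2 and 25.6 CPM in -N and 10.3 and 9.17 CPM in -E-N in FCS/LIF. In 2i/LIF the Nr5a2 values were 80.2, 70.6 and 61.8 CPM in +E+N, 52.2, 46.6 and 42.3 CPM in -E, 78.4, 64.3 and 63.9 CPM in -N and 46.1, 34.4 and 20.9 CPM in -E-N. Nr5a2 RNA was lower in every FCS/LIF -E library than in +E+N (-0.98 ± 0.09, adjusted p = 0.00013), in cells with intact Nr5a2. Its -N libraries were lower without a call in FCS/LIF (-0.55 ± 0.08, adjusted p = 0.021) and overlapped +E+N in 2i/LIF (-0.05 ± 0.21, adjusted p = 0.92). In -E-N it fell in both media (-1.99 ± 0.09, adjusted p = 1.6e-06 and -1.05 ± 0.21, adjusted p = 0.0017). The counts do not separate the transgene from transcripts of the disrupted Esrrb gene, and deletions within Nr5a2 need not lower its counts, so neither gene is a full check of the labels. Replicate 3 of -E-N in 2i/LIF stood apart among its group for several members (below) and had the lowest Esrrb there, at 104 CPM against 171 and 161. CPM are counts scaled to library size with TMM factors of all 20 libraries, and TPM, which is per length, is used only to compare levels between genes.

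A gene was tested in a medium where 1 state or more had 20 counts or more in every replicate, which held for 39 members in FCS/LIF and 33 in 2i/LIF. Wnt1, Wnt2, Wnt8b and Wnt16 passed in neither medium. Some low members passed only through the -E-N libraries, namely Rnf43, Wnt9b, Wnt10a and Wnt10b in FCS/LIF and Rnf43, Wnt6 and Wnt7a in 2i/LIF. The members were also chosen with earlier results of these data known. The counts and medians that follow are therefore not support for a trend of the whole set. A member was called at an adjusted p under 0.01 (edgeR quasi-likelihood test, Benjamini-Hochberg over all genes tested) and a fold over 1.5, and changes below are log2 fold changes ± SE. Over the 8 comparisons of states, 25 of the 40 members tested in either medium were called at least once (62.5%), beside 29.2% of all 16147 such genes. Of the 32 members tested in both media 10 were called in each (31.2%), beside 8.66% of all 13844 such genes: Wnt6, Wnt7a, Wnt8a, Wls, Fzd2, Fzd5, Fzd10, Axin2, Sp5 and Dkk1. Of these, Wnt6 and Wnt7a passed the 2i/LIF filter only through -E-N.

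**Figure D1:**
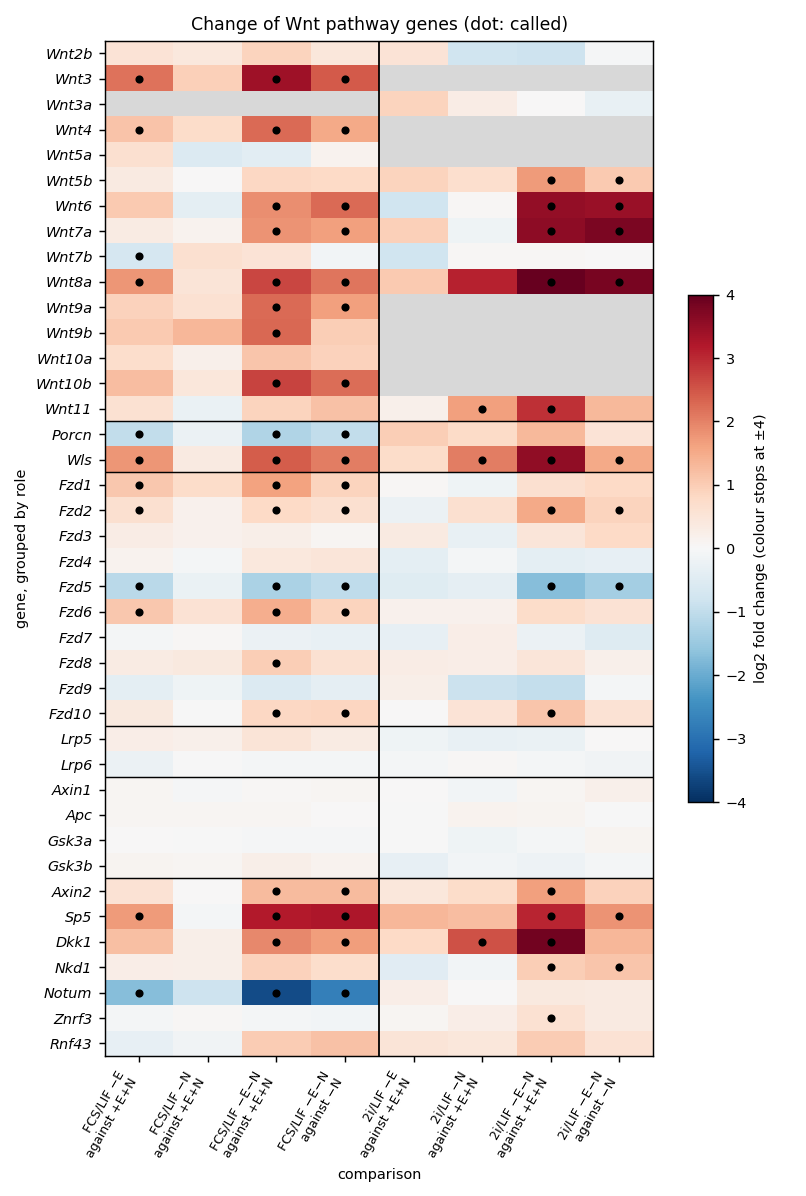
Log2 fold change of the 40 members tested in at least 1 medium (rows, ordered by role) in the 8 comparisons of states (columns). A dot marks a call, grey marks a member not tested in that medium, and colours stop at 4 in either direction. In -E-N against +E+N, 8 of 14 ligands tested in FCS/LIF are called higher, beside 12.4% of all genes. In 2i/LIF 5 of 8 are, beside 9.06%, and 7 ligand rows are grey. Of these ligands, Wnt9b and Wnt10b in FCS/LIF and Wnt6 and Wnt7a in 2i/LIF passed the filter only through -E-N. Fzd5 is blue in both media and Notum is blue in FCS/LIF only.

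Loss of Esrrb alone in FCS/LIF raised 8 members and lowered 4 of 39, against 5.76% of all genes tested (3.23% higher and 2.53% lower). Without FCS/LIF +E+N replicate 1 the number called was 7 and without -E replicate 2 it was 5, against 12 with all libraries. Loss of both factors raised 17 members and lowered 3 in FCS/LIF, where 18.8% of all genes were called (12.4% higher, 6.4% lower), with a median change of 0.89 over the tested members and 0 over all genes. The members' median includes 4 that passed the filter only through -E-N. When -E-N was set against -N in FCS/LIF, 15 rose and 3 fell, beside 10.1% of all genes (6.57% higher, 3.49% lower), and 9 were called without -E-N replicate 2. The comparisons of -E and -E-N with +E+N share their control libraries, so agreement between them is not independent. In bulk RNA, fewer cells of a type and less RNA per cell cannot be told apart.

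With Nr5a2 disrupted and Esrrb present, 0 of 39 members were called in FCS/LIF by edgeR (0.173% of all genes, 0.0767% higher and 0.0959% lower), 13 were under an unadjusted p of 0.05, and DESeq2 called 2, Wnt7b and Notum. In 2i/LIF the same comparison gave 3 rises, Wnt11, Wls and Dkk1, and 0 falls among 33 members, beside 3.65% of all genes (1.61% higher, 2.04% lower). Only 1 of these was called without 2i/LIF +E+N replicate 2 or without replicate 3 of that group. With the replicate number as a block, 9 members were called (7.77% of all genes). These were the 3 above, with Wnt8a, Porcn, Fzd2, Axin2 and Sp5 higher and Fzd9 lower. Loss of Esrrb alone in 2i/LIF gave 0 calls among the 33 by edgeR (1.55% of all genes, 0.439% higher and 1.11% lower), with 8 at an unadjusted p under 0.05 and 1, Wnt5b, called by DESeq2. Shares of all genes called by DESeq2 are not given here or for FCS/LIF -N. Without 2i/LIF +E+N replicate 1 the edgeR count was 1. With the replicate block it was 3, Wnt5b, Porcn and Sp5, all higher (4.15% of all genes). Loss of both factors in 2i/LIF raised 13 members and lowered 1 of 33, beside 18.6% of all genes (9.06% higher, 9.56% lower), with medians of 0.61 over the members tested and 0.01 over all genes. The members' median includes 3 that passed the filter only through -E-N. Against -N, the -E-N libraries of 2i/LIF had 8 members higher and 1 lower (6.76% of all genes, 3.39% higher and 3.36% lower). With the replicate block 14 were called (11.3% of all genes). Called only with the block were Axin2 (0.96 ± 0.14, adjusted p = 0.00022), Wnt11 (1.34 ± 0.23, adjusted p = 0.00067), Dkk1 (1.34 ± 0.30, adjusted p = 0.0037), Porcn (0.59 ± 0.12, adjusted p = 0.0022) and Fzd3 (below).

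Among the ligands, the 14 tested in FCS/LIF gave 3 rises and 1 fall after loss of Esrrb, where 3.23% of all genes rose and 2.53% fell. After loss of both factors there were 8 rises and 0 falls, where 12.4% rose and 6.4% fell. Of the 8, Wnt9b and Wnt10b were tested only because their -E-N libraries passed the filter. Wnt3, a ligand of the early embryo that acts in forming the primitive streak, stood at 1.12 and 1.31 CPM in the FCS/LIF +E+N libraries, 2.19 and 2.55 CPM in -N, 4.46 and 6.58 CPM in -E and 10.8 and 15.1 CPM in -E-N. Its 4 groups did not overlap, with +E+N lowest and -E-N highest. The change was 2.16 ± 0.26 (adjusted p = 0.00083) in -E, 3.39 ± 0.26 (adjusted p = 2.1e-05) in -E-N, and 2.45 ± 0.24 for -E-N against -N. Wnt8a, another ligand of gastrulation, went from 0.915 and 1.08 CPM in +E+N to 1.49 and 1.43 CPM in -N, 3.29 and 3.58 CPM in -E and 6.05 and 6.92 CPM in -E-N. These groups did not overlap either and lay in the same order, with changes of 1.76 ± 0.19 (adjusted p = 0.00040) in -E and 2.68 ± 0.18 (adjusted p = 1.2e-05) in -E-N. For Wnt4 the values were 1.52 and 1.93 CPM in +E+N, 2.84 and 3.01 CPM in -N, 4.04 and 3.74 CPM in -E and 7.44 and 9.3 CPM in -E-N. Every -E-N library exceeded every other, and the change was 2.26 ± 0.19 (adjusted p = 3.1e-05) in -E-N and 1.15 ± 0.19 (adjusted p = 0.0038) in -E, a call that was lost without +E+N replicate 1 or without either -E replicate (estimates from 1.00 to 1.34).

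The other FCS/LIF ligands that rose did so in -E-N and were not called in -E. Wnt6 had 1.31 and 1.97 CPM in +E+N, 3.14 and 3.72 CPM in -E, 1.03 and 1.49 CPM in -N and 5.42 and 6.78 CPM in -E-N. Its -N libraries overlapped those of +E+N and its -E-N libraries lay above all others, with a change of 1.87 ± 0.25 (adjusted p = 0.00045), whereas -E did not pass (1.04 ± 0.26, adjusted p = 0.023). Wnt7a was highest in the -E-N libraries, with little spread among the others, at 1.1 and 1.17 CPM in +E+N, 1.22 and 1.64 CPM in -E, 1.25 and 1.3 CPM in -N and 3.92 and 4.01 CPM in -E-N (1.78 ± 0.21, adjusted p = 0.00020). Wnt9a had 2.09 and 2.82 CPM in +E+N, 3.92 and 5.6 CPM in -E, 3.46 and 4.18 CPM in -N and 10.2 and 13.6 CPM in -E-N. The -E-N libraries of Wnt9a were the highest (2.25 ± 0.24, adjusted p = 0.00013), and its call against -N was lost without -E-N replicate 2. Wnt10b and Wnt9b rest on few reads: Wnt10b had 4 and 8 counts in +E+N and 29 and 48 in -E-N (2.70 ± 0.42, adjusted p = 0.00094). Wnt9b had 3 and 10 counts in +E+N and 28 and 35 in -E-N (2.30 ± 0.46, adjusted p = 0.0033). Neither overlapped between these states, and the Wnt9b call was lost without +E+N replicate 1 or without either -E-N replicate, with estimates from 1.77 to 3.29.

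Wnt7b, the ligand with most transcript per length in FCS/LIF +E+N ESCs, moved otherwise. It was at 21.4 and 20.1 CPM in +E+N, 12.5 and 14 CPM in -E, 30.2 and 35.2 CPM in -N and 27.2 and 34 CPM in -E-N. The -E libraries were lowest and the -N and -E-N libraries overlapped each other above +E+N. Wnt7b fell by 0.67 in -E (SE 0.13, adjusted p = 0.0077), a call that was lost without any 1 of the 4 libraries compared, while -E-N was higher with a fold under the limit (0.54 ± 0.12, adjusted p = 0.0071) and -N did not pass (0.64 ± 0.12, adjusted p = 0.042). On the genome, Wnt9b and Wnt3, Wnt3a and Wnt9a, and Wnt10b and Wnt1 lie head to head with 24328, 16175 and 11706 bases between them, and Wnt6 and Wnt10a follow each other on one strand of chr1 with 6193 bases between. Wnt3 and Wnt9b both rose in -E-N in FCS/LIF, at chr11:103774150-103817957 and chr11:103727364-103749821 of mm10, as did Wnt9a, whose neighbour Wnt3a was not tested in that medium. Wnt9b was tested there only because its -E-N libraries passed the filter, and its call depended on single libraries (above). Whether neighbouring ligands change together was not tested. Wnt10a, next to Wnt6, did not pass (1.12 ± 0.32, adjusted p = 0.019).

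In 2i/LIF, 8 ligands were tested, of which 5 rose after loss of both factors and 0 fell, beside 9.06% of all genes that rose and 9.56% that fell. Wnt6 and Wnt7a among the 5 passed the filter only through -E-N. The largest change of a member in any comparison of states was that of Wnt8a, with 0.161, 0.112 and 0.488 CPM in +E+N, 0.572, 0.036 and 0.97 CPM in -E, 1.27, 1.77 and 3.48 CPM in -N and 15.9, 22.7 and 51.5 CPM in -E-N. The -E libraries overlapped +E+N, the -N libraries lay above both, and -E-N lay above all others, with replicate 3 the highest. The change was 6.88 ± 0.75 (adjusted p = 1.9e-05) in -E-N, where +E+N rests on 5, 3 and 14 counts, and 3.81 ± 0.59 (adjusted p = 0.00099) for -E-N against -N. The -N libraries alone did not pass (3.07 ± 0.80, adjusted p = 0.029), but did with the replicate block (3.10 ± 0.43, adjusted p = 0.00022). Wnt6 had 0.45, 0.446 and 0.732 CPM in +E+N, 0.214, 0.252 and 0.45 CPM in -E, 0.436, 0.554 and 0.712 CPM in -N and 2.76, 3.53 and 12.3 CPM in -E-N. Its 3 -E-N libraries lay above the other 9, replicate 3 again highest, with a change of 3.52 ± 0.55 (adjusted p = 0.00028). Without replicate 3 of -E-N the changes were 6.24 for Wnt8a and 2.54 for Wnt6, and 12 members were called in -E-N against +E+N in place of 14. Wnt7a was at 0.225, 0.149 and 0.453 CPM in +E+N, 0.322, 0.54 and 0.762 CPM in -E, 0.0726, 0.332 and 0.337 CPM in -N and 1.48, 3.99 and 4.57 CPM in -E-N. It too was above the other 9 libraries in every -E-N library (3.59 ± 0.56, adjusted p = 0.00027).

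Wnt11 and Wnt5b, ligands known mainly for signalling that does not pass through β-catenin, rose in 2i/LIF. Wnt11 had 0.899, 0.743 and 0.523 CPM in +E+N, 0.822, 1.04 and 0.658 CPM in -E, 3.52, 1.48 and 1.8 CPM in -N and 6.48, 5.16 and 4.9 CPM in -E-N. The -N libraries lay above +E+N and -E, and the -E-N libraries above -N, with changes of 1.64 ± 0.34 (adjusted p = 0.0098) in -N and 2.94 ± 0.34 (adjusted p = 3.0e-05) in -E-N. The call in -N was at the edge of the limit and was lost in 11 of 12 fits that left out 1 library, the exception being the fit without -N replicate 2 (estimates from 1.17 to 1.87). Wnt5b, first among the ligands per length in 2i/LIF +E+N, had 2.99, 2.01 and 2.54 CPM in +E+N, 5.4, 4.39 and 4.05 CPM in -E, 4.5, 4.14 and 3.33 CPM in -N and 9.44, 8.37 and 6.6 CPM in -E-N. All other states exceeded +E+N in every library, and -E-N was highest (1.70 ± 0.21, adjusted p = 4.5e-05), while -E alone did not pass (0.88 ± 0.21, adjusted p = 0.029) except with the replicate block (0.87 ± 0.16, adjusted p = 0.0027). In FCS/LIF Wnt11 stayed at 0.192 to 0.866 CPM and was not called, nor was Wnt5b (0.82 ± 0.25, adjusted p = 0.024 in -E-N). Conversely Wnt3, Wnt4, Wnt9a, Wnt9b and Wnt10b did not pass the 2i/LIF filter. There Wnt3 had 0.45, 0.297 and 0.279 CPM in +E+N and 3.35, 2.19 and 0.474 CPM in -E-N, all above +E+N but with replicate 3 far below the others. Wnt4 had 0 to 3 counts in the 2i/LIF +E+N libraries and 12, 4 and 19 in -E-N.

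**Figure D2:**
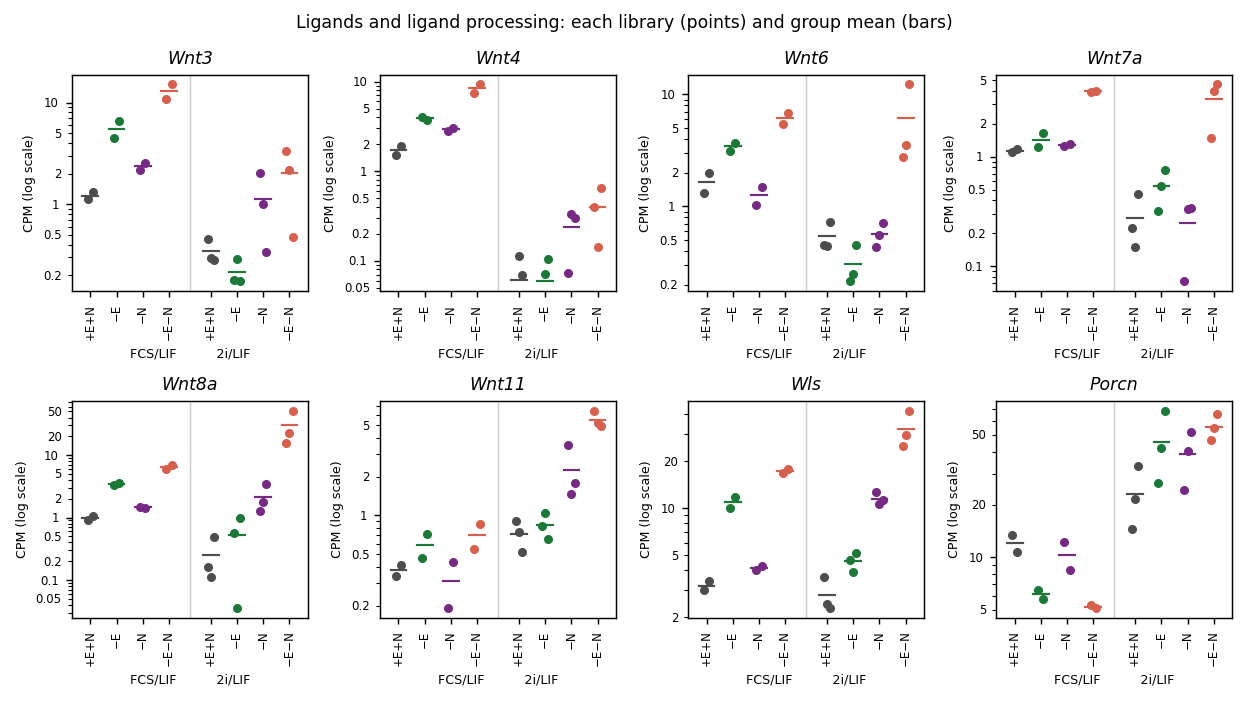
CPM of 6 ligands, Wls and Porcn in every library (points, log axis), with a panel for each gene. The states are on the horizontal axis and set the colours, with FCS/LIF on the left and 2i/LIF on the right of a line. The 2 libraries with 0 counts of Wnt4, 1 of +E+N and 1 of -E in 2i/LIF, cannot be drawn on a log axis. Wls climbs to 16.8 and 17.9 CPM in FCS/LIF -E-N and to between 25.0 and 42.3 CPM in 2i/LIF, and Porcn falls in FCS/LIF only.

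Of the genes that process ligands, Wls, the carrier that brings Wnt proteins to the cell surface, rose in both media. In FCS/LIF it had 2.98 and 3.4 CPM in +E+N, 4.04 and 4.26 CPM in -N, 10.1 and 11.8 CPM in -E and 16.8 and 17.9 CPM in -E-N. In 2i/LIF the values were 3.6, 2.42 and 2.3 CPM in +E+N, 4.65, 3.92 and 5.2 CPM in -E, 12.8, 10.6 and 11.2 CPM in -N and 25, 29.4 and 42.3 CPM in -E-N. The groups did not overlap in either medium, but the order of -E and -N differed: -E was above -N in FCS/LIF and below it in 2i/LIF. Wls changed by 1.75 ± 0.13 (adjusted p = 7.2e-05) in -E and 2.42 ± 0.13 (adjusted p = 4.5e-06) in -E-N of FCS/LIF. In 2i/LIF it changed by 2.05 ± 0.22 (adjusted p = 0.00014) in -N and 3.55 ± 0.23 (adjusted p = 3.0e-07) in -E-N. All 6 of its calls in the comparisons of states held whichever library was left out. Porcn, the acyltransferase that adds the lipid, was at 13.3 and 10.7 CPM in +E+N, 12.2 and 8.44 CPM in -N, 6.5 and 5.77 CPM in -E and 5.31 and 5.14 CPM in -E-N in FCS/LIF. Its -E and -E-N libraries lay below all +E+N and -N libraries, with -0.98 ± 0.19 (adjusted p = 0.0074) in -E and -1.22 ± 0.19 (adjusted p = 0.00098) in -E-N. The first call was lost in 5 of 8 fits with a library left out (estimates from -1.13 to -0.81), and the second without -E-N replicate 2. In 2i/LIF Porcn was not called (1.29 ± 0.36, adjusted p = 0.013 in -E-N), with 14.4, 21.4 and 33.1 CPM in +E+N and 46.5, 54.5 and 66 CPM in -E-N, and its spread among +E+N replicates was wide. With the replicate block Porcn was called higher in -N (0.76 ± 0.13, adjusted p = 0.00080) and -E (0.98 ± 0.12, adjusted p = 0.00022). The block also called it in -E-N (1.36 ± 0.12, adjusted p = 1.2e-06), where the same-numbered pairs with +E+N did not meet the limit given below.

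Frizzled receptors changed in both directions. After loss of both factors 5 of 10 rose and 1 fell in FCS/LIF, and 2 rose and 1 fell of 10 in 2i/LIF. All genes called there were 18.8% in FCS/LIF and 18.6% in 2i/LIF. Fzd5, 1 of the 2 receptors with most transcript per length in FCS/LIF, was the one that fell in both media. In FCS/LIF it was at 107 and 107 CPM in +E+N, 87.8 and 93.1 CPM in -N, 53.7 and 49.7 CPM in -E and 43 and 47 CPM in -E-N. The 2i/LIF libraries had 116, 126 and 118 CPM in +E+N, 78.6, 96.8 and 80.6 CPM in -E, 81.4, 104 and 98.2 CPM in -N and 38.7, 42 and 29.3 CPM in -E-N. Each FCS/LIF state stood apart from the others, whereas in 2i/LIF -E and -N overlapped between +E+N and -E-N. The FCS/LIF change was -1.07 ± 0.07 (adjusted p = 3.6e-05) in -E and -1.27 ± 0.07 (adjusted p = 4.3e-06) in -E-N. The 2i/LIF change was -1.70 ± 0.13 (adjusted p = 1.3e-06) in -E-N, and -E did not pass (-0.49 ± 0.13, adjusted p = 0.039). These calls held whichever library was left out. In the annotation, 17.8% of the exonic bases of Fzd5 (chr1:64730558-64737751) lie opposite Gm38058, which had at most 54 counts in any library.

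Fzd2 rose in both media, from 15 and 15.8 CPM to 23.7 and 24.7 CPM in -E and 26.6 and 27.7 CPM in -E-N in FCS/LIF, with -N at 17.2 and 17.8 CPM. In 2i/LIF it had 8.45, 8.25 and 8.64 CPM in +E+N, 8.04, 5.97 and 7.38 CPM in -E, 14.5, 10.9 and 14 CPM in -N and 23, 22 and 26.7 CPM in -E-N. In 2i/LIF the -E-N libraries were above all others and the -N libraries above +E+N. The -N change was called only with the replicate block (0.62 ± 0.11, adjusted p = 0.0011). The change of Fzd2 was 0.63 ± 0.08 (adjusted p = 0.00083) in -E and 0.80 ± 0.08 (adjusted p = 7.0e-05) in -E-N in FCS/LIF, the former lost without -E replicate 2, and 1.51 ± 0.14 (adjusted p = 5.9e-06) in -E-N in 2i/LIF. Fzd10 was at 8.26 and 9.41 CPM in +E+N, 9.95 and 13.8 CPM in -E, 9.67 and 8.07 CPM in -N and 15.1 and 16.7 CPM in -E-N in FCS/LIF. Its 2i/LIF levels were 48.2, 48 and 40.7 CPM in +E+N, 49.5, 45.3 and 42.8 CPM in -E, 73.7, 68.8 and 56.5 CPM in -N and 87.2, 109 and 94.2 CPM in -E-N. In both media -E-N was the highest group without overlap. Fzd10 changed by 0.83 ± 0.17 (adjusted p = 0.0036) in FCS/LIF -E-N, lost in 3 of 8 fits with a library left out (+E+N replicate 1 and both -E-N replicates), and by 1.10 ± 0.11 (adjusted p = 1.1e-05) in 2i/LIF -E-N.

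Fzd1, Fzd6 and Fzd8 were called in FCS/LIF alone (with the replicate block Fzd6 also in 2i/LIF -E-N, 0.72 ± 0.18, adjusted p = 0.0043), and the tests of a difference between media did not pass for them. Fzd1 had 1.33 and 1.58 CPM in +E+N, 3.22 and 3 CPM in -E, 2.5 and 2.4 CPM in -N and 4.1 and 4.95 CPM in -E-N. The 4 groups did not overlap (1.07 ± 0.19, adjusted p = 0.0050 in -E and 1.61 ± 0.19, adjusted p = 0.00019 in -E-N), and the call in -E was lost without any 1 of the 4 libraries compared. Fzd6, a receptor of the planar cell polarity branch, had 2.93 and 3.33 CPM in +E+N, 6.01 and 7.32 CPM in -E, 4.45 and 5.08 CPM in -N and 8.13 and 9.42 CPM in -E-N. Its groups also stood apart, with 1.07 ± 0.17 (adjusted p = 0.0029) in -E, lost without +E+N replicate 1 or -E replicate 2, and 1.47 ± 0.17 (adjusted p = 0.00017) in -E-N. Fzd8 had 2.59 and 2.78 CPM in +E+N, 3.24 and 3.65 CPM in -E, 3.39 and 3.7 CPM in -N and 5.52 and 5.29 CPM in -E-N. The -E and -N libraries of Fzd8 overlapped and -E-N was above them (0.99 ± 0.15, adjusted p = 0.00088). Fzd3 and Fzd9 were called only with the replicate block, Fzd3 in 2i/LIF -E-N against -N (0.78 ± 0.15, adjusted p = 0.0015) and Fzd9 in 2i/LIF -N (-0.87 ± 0.18, adjusted p = 0.0041) and -E-N (-0.96 ± 0.18, adjusted p = 0.00062). Same-numbered pairs of 2i/LIF +E+N and -E-N, behind the blocked -E-N values of Fzd6 and Fzd9 against +E+N, did not meet the limit given below. Fzd4 and Fzd7 were called only between the media.

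For the 2 co-receptors and 4 destruction complex genes edgeR called 0 of 48 tests over the 8 comparisons of states. In these comparisons 0.173% to 18.8% of all genes were called, and whether 0 is below that background was not tested. Of the 48 tests 12 were at an unadjusted p under 0.05, and DESeq2 called 0. Lrp5 (0.82 ± 0.18) and Gsk3b (0.46 ± 0.11) passed the test of a difference between media in -E-N (below). Over all 20 libraries Axin1 ranged from 64.7 to 87.8 CPM, Apc from 98.4 to 150.4 CPM, Gsk3a from 91.6 to 128 CPM and Gsk3b from 52.7 to 86.4 CPM. In each of these genes the highest library was under 2 times the lowest. Lrp5, a co-receptor, had an adjusted p under 0.01 in FCS/LIF -E-N with a fold under the limit (0.52 ± 0.07, adjusted p = 0.00037). Its values were 53.1 and 49 CPM in +E+N and 77.4 and 70.6 CPM in -E-N, without overlap, and in 2i/LIF the change was -0.27 ± 0.13 (adjusted p = 0.11). For Gsk3a, 28.3% of the exonic bases lie opposite 9130221H12Rik, which had 94 to 198 counts.

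Of the 7 feedback genes, Sp5, Axin2 and Dkk1 rose in both media after loss of both factors. Sp5, a transcription factor and direct target of β-catenin, had 1.36 and 0.941 CPM in +E+N, 1.15 and 1.06 CPM in -N, 3.31 and 4.31 CPM in -E and 9.78 and 11 CPM in -E-N in FCS/LIF. The +E+N and -N libraries overlapped, -E lay above them and -E-N above -E. In 2i/LIF the levels of Sp5 were 41.4, 18.5 and 13.7 CPM in +E+N, 64, 57.7 and 61.4 CPM in -E, 89.9, 50 and 34.8 CPM in -N and 199, 226 and 178 CPM in -E-N. There the -N libraries overlapped +E+N, -E lay above +E+N, and every -E-N library was above all others. In FCS/LIF the change was 1.72 ± 0.22 (adjusted p = 0.0012) in -E, lost without -E replicate 2, and 3.17 ± 0.22 (adjusted p = 1.3e-05) in -E-N, and in 2i/LIF it was 3.05 ± 0.38 (adjusted p = 5.3e-05) in -E-N. With the replicate block Sp5 also passed in 2i/LIF -E (1.43 ± 0.25, adjusted p = 0.0020) and -N (1.25 ± 0.25, adjusted p = 0.0029). Replicate 1 of +E+N and of -N in 2i/LIF had more Sp5 and Axin2 than the other libraries of its group. Axin2, the scaffold that serves as the general readout of β-catenin activity, was at 7.35 and 8.53 CPM in +E+N, 10.7 and 13.4 CPM in -E, 9.17 and 7.14 CPM in -N and 18.4 and 20.4 CPM in -E-N in FCS/LIF. Its 2i/LIF levels were 63.2, 38.7 and 34.6 CPM in +E+N, 64.9, 64.7 and 56.8 CPM in -E, 104, 71.9 and 51.9 CPM in -N and 144, 146 and 130.5 CPM in -E-N. In both media the -E-N libraries were the highest without overlap, with 1.27 ± 0.16 (adjusted p = 0.00031) in FCS/LIF and 1.64 ± 0.24 (adjusted p = 0.00015) in 2i/LIF. With the replicate block Axin2 passed in 2i/LIF -N as well (0.73 ± 0.14, adjusted p = 0.0028).

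Dkk1, a secreted inhibitor that binds the Lrp co-receptors, had 1.15 and 1.22 CPM in +E+N, 2.46 and 3.03 CPM in -E, 1.32 and 1.49 CPM in -N and 3.29 and 5.74 CPM in -E-N in FCS/LIF. In 2i/LIF it had 1.41, 0.52 and 0.488 CPM in +E+N, 2.32, 0.791 and 1.14 CPM in -E, 4.43, 6.09 and 3.78 CPM in -N and 10.6, 13.4 and 11.5 CPM in -E-N. In 2i/LIF the -N and the -E-N groups each stood above the groups with Nr5a2 intact, and in FCS/LIF -E-N was the highest. Dkk1 changed by 1.91 ± 0.29 (adjusted p = 0.00074) in FCS/LIF -E-N, 2.53 ± 0.43 (adjusted p = 0.0028) in 2i/LIF -N and 3.86 ± 0.43 (adjusted p = 2.3e-05) in 2i/LIF -E-N. The call in 2i/LIF -N was lost without +E+N replicate 2, without +E+N replicate 3 or without -N replicate 2, with estimates from 2.28 to 3.22. Nkd1, an inhibitor that acts on Dishevelled, and Znrf3, a ubiquitin ligase that removes Frizzled from the surface, were called in 2i/LIF alone. Nkd1 had 2.89, 2.6 and 3.97 CPM in +E+N, 2.32, 2.09 and 2.53 CPM in -E, 3.74, 2.03 and 3.07 CPM in -N and 4.8, 6.36 and 7.51 CPM in -E-N. Its -E-N libraries were the highest (0.99 ± 0.25, adjusted p = 0.0074), but the call was lost in 7 of 12 fits with a library left out (estimates from 0.83 to 1.2), among them those without +E+N replicate 1 or 2 and without -E-N replicate 2 or 3. For Znrf3 the values were 21.2, 17.5 and 15.4 CPM in +E+N, 19.7, 20.4 and 17.1 CPM in -E, 27.1, 20.2 and 17.6 CPM in -N and 28.9, 27 and 26.1 CPM in -E-N. One -N library overlapped the -E-N range, and the call (0.61 ± 0.15, adjusted p = 0.0059) was lost in 5 of 12 such fits, those without any 1 of the -E-N replicates or without +E+N replicate 2 or 3 (estimates from 0.51 to 0.74).

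Notum, a secreted enzyme that strips the lipid from Wnt proteins, was the feedback gene that fell, and only its FCS/LIF changes were called. There it had 34.5 and 31.6 CPM in +E+N, 20.3 and 17.1 CPM in -N, 11.1 and 9.39 CPM in -E and 2.31 and 3.24 CPM in -E-N. The 4 groups descended in that order without overlap. Notum changed by -1.71 ± 0.15 (adjusted p = 0.00013) in -E, by -3.58 ± 0.17 (adjusted p = 1.8e-06) in -E-N and by -2.74 ± 0.17 between -E-N and -N, and the difference in -N did not pass in edgeR (-0.84 ± 0.14, adjusted p = 0.026). In 2i/LIF it had 34.7, 22.5 and 18.1 CPM in +E+N, 35.2, 28.8 and 26.6 CPM in -E, 32.7, 23.3 and 21.3 CPM in -N and 28.5, 32.1 and 37.8 CPM in -E-N. The 4 groups of 2i/LIF overlapped, and the change in -E-N was 0.40 ± 0.22 (adjusted p = 0.17). Notum (chr11:120653788-120661175, mm10) shares 38.1% of its exonic bases with genes annotated on the opposite strand, Notumos and Myadml2os. Notumos itself had 235 to 333 counts in FCS/LIF +E+N, 85 to 97 in -E, 162 to 206 in -N and 15 to 25 in -E-N. The libraries were stranded, but the RSEM options named in the methods include no strand setting. Whether reads of Notum and Notumos in the shared bases were told apart is not given in the sources used here.

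**Figure D3:**
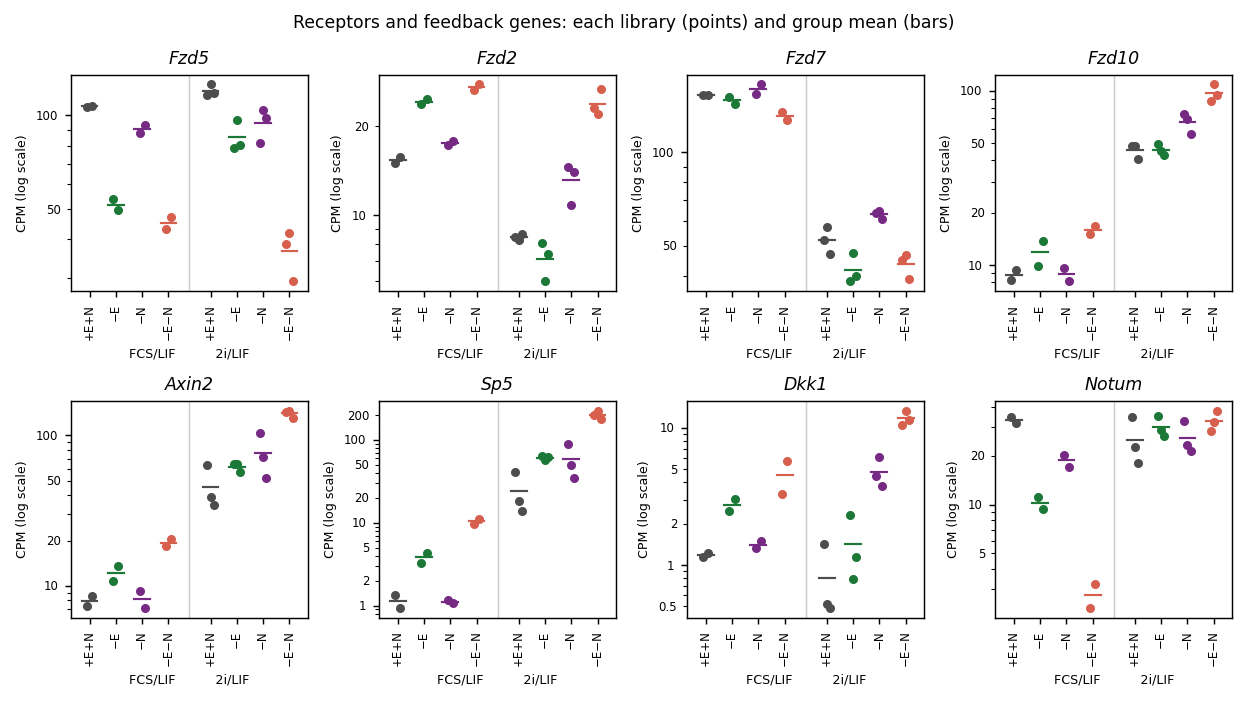
CPM of 4 Frizzled receptors and 4 feedback genes in every library (points, log axis), with the states on the horizontal axis and a panel for each gene. Fzd5 is lowest in -E-N in both media, Sp5, Axin2 and Dkk1 are highest there, and Notum drops from 34.5 and 31.6 CPM in +E+N to 2.31 and 3.24 CPM in -E-N in FCS/LIF and not in 2i/LIF.

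Whether the joint change differs from the sum of the single changes was asked with an interaction term, called at an adjusted p under 0.01. edgeR called 0 members in FCS/LIF (0.032% of all genes, all of them lower), where 8 were at an unadjusted p under 0.05 and DESeq2 called 1, Notum. In 2i/LIF edgeR called 0 members as well (0.307% of all genes, 0.0975% higher and 0.209% lower), 11 were at an unadjusted p under 0.05 and DESeq2 called 4: Wnt6, Fzd2, Fzd5 and Nkd1. The edgeR estimates for the first 3 of these were 4.28 ± 0.85 (adjusted p = 0.032) for Wnt6, 1.12 ± 0.20 (adjusted p = 0.019) for Fzd2 and -0.86 ± 0.18 (adjusted p = 0.039) for Fzd5. Wnt6 was tested in 2i/LIF only because its -E-N libraries passed the filter. Shares of all genes called by DESeq2 are not given for either medium, so its counts are not set against a background.

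Responses were then compared between media, as FCS/LIF minus 2i/LIF, in 1 fit of all 20 libraries with 40 members tested. The response to loss of Esrrb differed for 1 member, Notum (-1.95 ± 0.33, adjusted p = 0.0034), beside 1.06% of all genes (0.588% higher, 0.471% lower). This call was lost when any FCS/LIF library of +E+N or -E, or 2i/LIF +E+N replicate 2, was left out, and 2 members were called without 2i/LIF -E replicate 1 or 2, -N replicate 2 or -E-N replicate 3. The response to loss of Nr5a2 differed for Wls (-1.67 ± 0.31, adjusted p = 0.0079), beside 0.743% of all genes (0.409% higher, 0.334% lower), a call lost in 14 of 20 fits with a library left out (estimates from -1.91 to -1.55). These were any FCS/LIF library, any 2i/LIF -N library, 2i/LIF +E+N replicate 2 or 3 and 2i/LIF -E-N replicate 2. The response to loss of both differed for 7 members, 3 with a higher and 4 with a lower value in FCS/LIF, beside 13.2% of all genes (7.3% higher, 5.93% lower). The members' share of 17.5% was near that background. Without FCS/LIF -E-N replicate 2 the number was 1, and without FCS/LIF +E+N replicate 1, -E-N replicate 1, +E+N replicate 2 or 2i/LIF +E+N replicate 2 it was 2, 2, 3 and 4. The member called in all 20 such fits was Notum, whose difference was -3.95 ± 0.35 (adjusted p = 1.2e-06). Wnt8a responded less in FCS/LIF (-4.17 ± 0.93, adjusted p = 0.0035), and Porcn moved in opposite directions, down in FCS/LIF (-1.22 ± 0.19) and up in 2i/LIF (1.29 ± 0.36), where only the fit with the replicate block called it, with a difference of -2.47 ± 0.54 (adjusted p = 0.0032). Wnt9a responded more in FCS/LIF (2.19 ± 0.52, adjusted p = 0.0060), with 2i/LIF levels of 0.385, 0.483 and 0.801 CPM in +E+N and 0.493, 0.389 and 0.879 CPM in -E-N that overlapped. The other differences were -3.54 ± 0.76 (adjusted p = 0.0028) for Wnt5a, which rests on 0 to 21 counts in these 2i/LIF libraries, 0.82 ± 0.18 (adjusted p = 0.0037) for Lrp5 and 0.46 ± 0.11 (adjusted p = 0.0049) for Gsk3b. For Sp5, Axin2 and Fzd5, called in both media, this test did not pass.

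**Figure D4:**
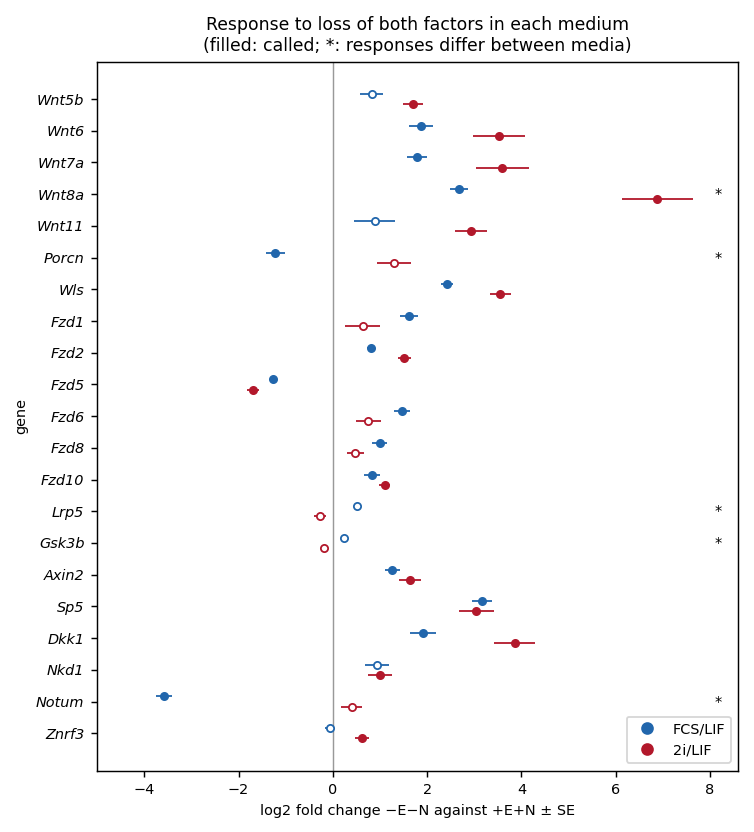
Log2 fold change of -E-N against +E+N (horizontal axis, point with SE bar) for 21 members, in FCS/LIF and in 2i/LIF. Filled points are called within the medium and an asterisk marks a response that differs between media at an adjusted p under 0.01. Notum lies at -3.58 in FCS/LIF and 0.40 in 2i/LIF, while Sp5 lies at 3.17 and 3.05.

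The +E+N ESCs of the media were compared to see where the responses began, and 7 members were higher and 8 lower in 2i/LIF of 40 tested, beside 34.7% of all genes (17.2% higher, 17.5% lower), so that the members' share of 37.5% was near the background. Sp5 was at 41.4, 18.5 and 13.7 CPM in 2i/LIF and 1.36 and 0.941 CPM in FCS/LIF (4.43 ± 0.52, adjusted p = 1.5e-06), and Axin2 at 63.2, 38.7 and 34.6 CPM and 7.35 and 8.53 CPM (2.52 ± 0.28, adjusted p = 7.1e-07). Fzd10 was likewise higher in 2i/LIF (2.37 ± 0.16, adjusted p = 1.8e-09), as were Fzd8 (1.02 ± 0.19), Wnt5b (1.62 ± 0.25) and Wnt3a (2.89 ± 0.41), and none of these overlapped between the media. Fzd4 had 5.84, 6.21 and 6.79 CPM in 2i/LIF and 2.75 and 2.94 CPM in FCS/LIF (1.14 ± 0.22, adjusted p = 0.00032). Fzd7 went the other way, with 52.3, 57.5 and 47.2 CPM in 2i/LIF and 153 and 154 CPM in FCS/LIF (-1.55 ± 0.09, adjusted p = 5.3e-10), and Wnt7b had 1.48, 2.82 and 3.27 CPM and 21.4 and 20.1 CPM (-3.05 ± 0.29, adjusted p = 1.3e-07). Fzd2 (-0.87 ± 0.13), Wnt9a (-2.14 ± 0.37) and Wnt7a (-2.02 ± 0.53) were also lower in 2i/LIF, the last not without either FCS/LIF +E+N library or without 2i/LIF +E+N replicate 1 or 2. Wnt4, Wnt5a and Wnt9b were called lower too, but had at most 3 counts in each 2i/LIF +E+N library, 0 in all 3 for Wnt9b, against 58 and 84, 95 and 159 and 3 and 10 in FCS/LIF, and no fold is given.

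On the TPM scale, Wnt7b led the ligands in FCS/LIF +E+N with a mean of 8.16 (8.14 to 8.19) TPM, lowest and highest library in parentheses, followed by Wnt6 with 1.38 (1.18 to 1.57) TPM. In 2i/LIF no ligand stood out in that way: Wnt5b led with 1.47 (1.19 to 1.7) TPM and Wnt7b, whose range overlapped it, had 0.993 (0.55 to 1.33) TPM. Among receptors, Fzd7 with 40.9 (39.7 to 42.1) TPM preceded Fzd5 with 19.3 (18.6 to 20) TPM in FCS/LIF. The order in 2i/LIF was Fzd5 with 20.9 (19.5 to 22.2) TPM, Fzd10 with 17.2 (15.8 to 18.2) TPM and Fzd7 with 13.8 (12.8 to 15.3) TPM, and these ranges did not overlap. Feedback genes were led by Notum in both media, with 27.5 (27.1 to 27.8) TPM in FCS/LIF and 21.1 (16.6 to 27.6) TPM in 2i/LIF, where the ranges of Axin2 and Sp5 overlapped that of Notum.

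**Figure D5:**
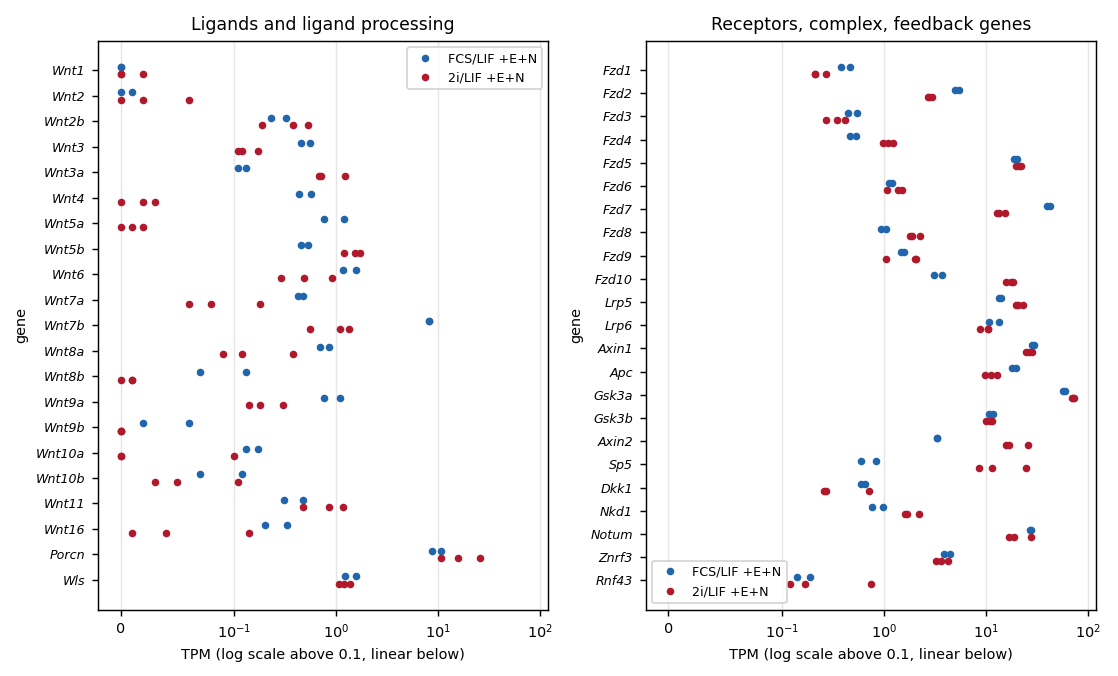
TPM of the members in the +E+N libraries (points, log axis) in FCS/LIF and 2i/LIF, ordered by role. Gsk3a, with means of 58.7 and 70.8 TPM, lies above every ligand, and Axin2 and Sp5 sit higher in 2i/LIF than in FCS/LIF.

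A list of 64 other pathway genes, among them Tcf/Lef factors, Dishevelled, R-spondins, secreted inhibitors and polarity genes, was tested in the same fits. In FCS/LIF -E-N, 15 of 57 tested rose and 3 fell, beside 12.4% and 6.4% of all genes. In 2i/LIF -E-N 13 of 53 rose and 7 fell, beside 9.06% and 9.56%. The 2 largest rises and falls with enough reads in FCS/LIF were Cdx2 (1.89 ± 0.25, adjusted p = 0.00042), a Wnt-responsive trophectoderm factor, and Ror2 (1.37 ± 0.15, adjusted p = 0.00016), a receptor of Wnt5a, against Vangl1 (-1.12 ± 0.07, adjusted p = 9.0e-06) and Celsr3 (-0.67 ± 0.14, adjusted p = 0.0044), both of planar cell polarity. In 2i/LIF they were Lef1 (5.03 ± 0.30, adjusted p = 2.0e-07), a nuclear partner of β-catenin, and Cdx2 (5.03 ± 0.58, adjusted p = 2.8e-05), against the secreted inhibitor Sfrp1 (-2.88 ± 0.31, adjusted p = 1.5e-05) and the kinase Csnk1e (-1.72 ± 0.14, adjusted p = 1.7e-06). After loss of Esrrb alone 3 rose and 3 fell in FCS/LIF (6 of 57, beside 5.76% of all genes). In 2i/LIF 1 rose and 2 fell (3 of 53, beside 1.55%). After loss of Nr5a2 alone 3 of 53 rose in 2i/LIF, beside 1.61% of all genes. Cdx2 and T of this list also stand in the lists of trophectoderm and streak markers below. Both were among the rises in -E-N.

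Markers of other cell types moved with the -E-N state and in part with -E and -N, and their part in the results above was not tested. The summed level of 8 pluripotency genes went from 2862 to 3110 CPM in FCS/LIF +E+N to 2014 to 2131 CPM in -E, where 5 of 8 fell, 2419 to 2688 CPM in -N and 1316 to 1455 CPM in -E-N, where 8 of 8 fell. In 2i/LIF it went from 3971 to 4203 CPM in +E+N to 1813 to 2421 CPM in -E-N, where 6 of 8 fell. Trophectoderm markers summed to 371 to 423 CPM in FCS/LIF +E+N and 1349 to 2095 CPM in -E-N (6 of 7 rose). Of the 6, Krt8 and Krt18 had mean counts of 19368 and 11933 over FCS/LIF, against 1392 or fewer for the others. In 2i/LIF the trophectoderm markers summed to 85.8 to 99.1 CPM and 317 to 500 CPM (4 of 5 tested rose). In -N they summed to 720 to 978 CPM in FCS/LIF (0 of 7 called) and 142 to 158 CPM in 2i/LIF (2 of 5 tested rose, Krt8 and Krt18). In -E they summed to 497 to 666 CPM (1 of 7 rose) and 77.1 to 94.3 CPM. Neural markers in FCS/LIF summed to 51.6 to 51.8 CPM in +E+N, 114 to 121 CPM in -E (1 of 4 tested rose), 63.1 to 71 CPM in -N and 176 to 177 CPM in -E-N (2 of 4 rose, 1 fell), but in 2i/LIF +E+N and -E-N overlapped. Primitive streak and mesoderm markers went from 4.08 to 5.3 CPM in FCS/LIF +E+N to 11 to 11.6 CPM in -E-N (2 of 3 tested rose). In 2i/LIF they went the other way, from 19.6 to 22.6 CPM to 8.59 to 16.1 CPM (of 4 tested 1 rose and 2 fell), with Mesp1 and Lhx1 at 3 counts or fewer in every library. Primitive endoderm markers were at 27.7 to 35 CPM in FCS/LIF +E+N, 53.5 to 53.8 CPM in -E and 55.5 to 58.1 CPM in -E-N (1 of 7 rose in each, Dab2). In -E-N 3 of the 7 changes were above 0 and 4 below, with a median of -0.07, so the sum does not describe the list. In 2i/LIF they were at 5.28 to 8.64 CPM and 11.4 to 14.2 CPM in -E-N (of 5 tested 2 rose and 1 fell). Fibroblast markers were at 8.66 to 10.3 CPM and 14.6 to 15.6 CPM in FCS/LIF +E+N and -E-N (5 of 6 rose). In 2i/LIF they were at 11.2 to 20 CPM and 11.6 to 21.6 CPM (of 4 tested 1 rose and 1 fell).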

How the data were processed

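RNA-seq values of 20 libraries were analysed, and ChIP-seq samples were not analysed here. Per the labels, STAR, RSEM and the mm10 build were used (Bowtie2 is also named), and their versions are not given in the sources used here. Reads were stranded and paired. The authors deposited expected counts per gene, estimated by RSEM without normalization between libraries, and TPM values from the same step. RSEM divides reads of near-identical genes by estimation.

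Expected counts were rounded. The main test was the quasi-likelihood test of edgeR 4.0.16 (TMM, R 4.3.3), with 1 fit per medium of its 4 states and no replicate block, on genes that reached 20 counts in every replicate of some state (15636 in FCS/LIF, 14355 in 2i/LIF). Calls need a Benjamini-Hochberg adjusted p under 0.01 and a fold over 1.5. Interactions, and differences between media in a fit of all 20 libraries (16147 genes), have no fold limit. SE is the log2 fold change divided by the square root of F. Gene positions and overlaps are from GENCODE vM21.

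The members and lists were chosen with earlier results of these data known. Full values are given for the 25 members called in at least 1 comparison of states, those called in 3 or more first within their role, for Esrrb and Nr5a2, and for members with a mean of 100 counts or more called only between media. Other pathway genes are given by counts, with the 2 largest rises and falls in -E-N with such a mean.

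Alternatives were DESeq2 1.42.0, its size factors, no filter on low counts, the replicate number as a block, limma 3.58.1 on log2(TPM + 1), no fold limit, an adjusted p under 0.05 and leaving out each library. On simulated counts, of 100 genes changed by 1 and 100 changed by 2 on the log2 scale, 80 and 98 were called for FCS/LIF -E and 67 and 94 for the FCS/LIF interaction (15636 genes), 71 and 94 for 2i/LIF -E and 62 and 88 for the 2i/LIF interaction (14355 genes), and 51 and 94 for the -E-N difference between media (16147 genes), with 1 or 2 unchanged genes called. The changed genes were drawn only from genes with more reads than low ligands such as Wnt9b and Wnt10b have. Simulated libraries shared no effect of a replicate number. The rates therefore do not cover members with few reads.

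The labels do not tie a replicate number to a shared culture or day. In 2i/LIF, deviations of same-numbered libraries from their group means had correlations of 0.207 to 0.632 between +E+N and -N, 0.241 to 0.531 between +E+N and -E, and 0.2 to 0.483 between -N and -E-N. All 3 pairs were over 0.1 in each, so blocked values are given beside these comparisons where they change a call or count. Pairs of +E+N and -E-N (-0.0027 to 0.412) and of FCS/LIF, with 2 pairs, did not meet that limit or number. Blocked values of 2i/LIF -E-N against +E+N are given for Porcn, Fzd6 and Fzd9 all the same. The block called 17 members in that comparison, beside 22.9% of all genes.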

Additional observations from a re-analysis of the deposited data

Results flagged for a closer look

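For 9 responses the test of a difference between media, FCS/LIF minus 2i/LIF, passed at an adjusted p under 0.01 (edgeR, all 20 libraries). Of 40 members tested these were 1 for -E, 1 for -N and 7 for -E-N. The shares of all genes were 1.06%, 0.743% and 13.2%. After loss of Esrrb alone, Notum, the enzyme that removes the lipid of Wnt proteins, differed by -1.95: its -E libraries lay below +E+N in FCS/LIF and overlapped +E+N in 2i/LIF. After loss of Nr5a2 alone, the carrier Wls differed by -1.67, since its -N libraries in 2i/LIF were well above +E+N and those in FCS/LIF only slightly.

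After loss of both factors, 7 members differed, a share of 17.5% that was near the 13.2% of all genes. Notum differed by -3.95, the one value that passed whichever library was left out. Wnt8a differed by -4.17 and Porcn by -2.47, and these calls were lost in 6 and 3 of 20 fits with a library left out. Wnt5a differed by -3.54, on very few reads in 2i/LIF. Wnt9a differed by 2.19, a call lost in 8 of 20 such fits. The co-receptor Lrp5 differed by 0.82 and the kinase Gsk3b by 0.46, both small changes of well-expressed genes that were not called within either medium, and each was lost in 5 of 20 such fits. The medium and the culture batch cannot be told apart in these differences.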

How the results depend on the processing

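Of 100 named calls of members, 99 held with DESeq2 (Wnt10b in FCS/LIF -E-N against -N was lost), 99 without a filter (the Gsk3b difference between media was lost) and 76 with limma on log2(TPM + 1). With 1 library left out, 1040 of 1192 values passed, 64 of the 100 calls passed in every such fit, and 0 values changed sign. With size factors of DESeq2 and with no fold limit, counts stayed within 1.5 times those given. DESeq2 called 2 members in FCS/LIF -N, 1 in the FCS/LIF interaction, 1 in 2i/LIF -E, 4 in the 2i/LIF interaction, and 3, 2 and 11 for the differences between media of -E, -N and -E-N. With no filter these 7 counts were 3, 2, 1, 3, 7, 7 and 13, and 2i/LIF -N gave 7. At an adjusted p under 0.05 the calls were 2 in FCS/LIF -N, 1 in 2i/LIF -E, 5 in 2i/LIF -N, 3 in the 2i/LIF interaction, and 3 and 13 for the differences of -E and -E-N. limma called 7 in FCS/LIF -E and 3 and 0 for the differences of -E and -N, and moved the median of all genes by 0.13 in FCS/LIF -E-N. The cause of these shifts was not tested. Shares of all genes called are not given for these settings or for the fits with a library left out below. These counts therefore do not set the members against the background.

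With 1 library left out, the members called ranged from 5 to 12 in FCS/LIF -E, were 0 in -N, ranged from 17 to 21 in -E-N and from 9 to 18 for -E-N against -N. In 2i/LIF they ranged from 0 to 1 in -E, from 1 to 3 in -N, from 12 to 15 in -E-N and from 6 to 12 for -E-N against -N. The interaction had 0 in both media. The differences between media had 0 to 2, 0 to 1 and 1 to 10 for -E, -N and -E-N, and the controls 13 to 17. Where 1 replicate of a state in FCS/LIF is left out, the other is assumed to vary like the rest.

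Same-numbered libraries of FCS/LIF had correlations of 0.0921 to 0.485, and 11 of 12 libraries of 2i/LIF correlated best with their own number, a hint from the data only. With the replicate number as a block, the members called were 2 in FCS/LIF -N, 3 in 2i/LIF -E, 9 in 2i/LIF -N, 14 in 2i/LIF -E-N against -N, 4 in the 2i/LIF interaction, and 5, 3 and 14 for the differences of -E, -N and -E-N. All genes called under the block were 4.15% in 2i/LIF -E, 7.77% in -N and 11.3% in -E-N against -N. Without the block these shares were 1.55%, 3.65% and 6.76%, so the background rose with the members. Shares for the other blocked counts are not given. All 100 named calls held under the block.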
